A study of Homo sapiens with 18 samples.

Results

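TXNIP and 7 genes that act with it or resemble it were followed in 3 lung cancer cell lines with stable SYK knockdown. The 8 genes were TXNIP, the arrestin-domain genes ARRDC2, ARRDC3 and ARRDC4, the transcription factor genes MLX and MLXIP, and the thioredoxin genes TXN and TXN2. They are 8 of 58302 genes listed in each expression table and were picked by symbol, after the higher TXNIP level in EBC-1 cells with knockdown had been seen. All their values in EBC-1 are therefore given as a description without a test, and tests were made in PC-9 and HCC827.

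The 3 lines were EBC-1, PC-9 and HCC827, and RNA was sequenced after they had stably received 1 shRNA against SYK, delivered by lentivirus (shSYK), or a negative control (nc). SYK encodes a cytoplasmic tyrosine kinase. Per the labels, EBC-1 carries MET amplification, and PC-9 and HCC827 carry an EGFR exon 19 deletion. Each of the 6 groups had 3 libraries, 18 in all. No drug or time point is given for any group, and with 1 shRNA its effects through SYK and through other transcripts cannot be told apart. Nothing states that the 3 libraries of a group came from separate cultures, so p-values measure only the spread between these libraries, which may be technical.

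TXNIP is an alpha-arrestin, a membrane-trafficking adaptor that also binds the reduced active site of thioredoxin and helps to remove glucose transporters from the cell surface. The other alpha-arrestins recruit NEDD4-type ubiquitin ligases to membrane proteins, while thioredoxins reduce disulfide bonds in other proteins. MLXIP, also called MondoA, pairs with MLX and moves to the nucleus when glucose 6-phosphate accumulates, and TXNIP and ARRDC4 are its best known target genes.

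Reads on genes ranged from 7920099 to 15729103 per library. All 5 epithelial markers, such as KRT19 and EPCAM, were detected in every group, and the leukocyte markers summed to at most 1.67 FPKM in any library. The fibroblast markers summed to at most 8.37 FPKM, in PC-9 nc, where COL1A1 had a mean of 6.83 FPKM. FPKM, the unit used throughout, counts the fragments on a gene, scaled by the gene's length and the size of the library, as computed by the authors. The targeted gene SYK fell to 52.3% of its nc level in EBC-1 (limma, adjusted p = 0.000271). The other lines kept 32.1% in PC-9 and 32.9% in HCC827 (limma, adjusted p = 0.00733 and 0.000197). In PC-9 this call was lost when shSYK 1 was left out (adjusted p = 0.0648). The PC-9 nc libraries stood apart from each other. Their reads differed most between nc 1 and nc 2, where chi-square over its degrees of freedom was 38.7, against 2.11 to 14.3 in all other replicate pairs, so PC-9 values of the 8 genes are also given without nc 1 and without nc 2. PECAM1, an endothelial marker, had a mean of 13.4 FPKM in PC-9 nc and 4.98 in PC-9 shSYK, and its part in the results was not tested.

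TXNIP (ENSG00000265972, protein-coding, GRCh38 chr1:145992435-145996600, minus strand) was about 8 times higher in EBC-1 with SYK knockdown. It measured 4.12, 5.13 and 6.43 FPKM in the nc libraries and 43.0, 33.9 and 47.1 FPKM in the shSYK libraries. Every shSYK library lay far above every nc library. The means were 5.23 ± 1.16 and 41.3 ± 6.78 FPKM (SD, n = 3), a 7.91-fold higher level on the FPKM scale and a difference of 2.77 on the log2(FPKM + 1) scale. These levels rested on 206 to 275 reads in nc and 1436 to 2546 reads in shSYK, a depth at which counting error is small beside the difference. Among 12430 genes with a mean of at least 1 FPKM in EBC-1, only 2 had a larger difference upward. In a bulk sample, more RNA per cell and more cells that express the gene cannot be told apart.

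The TXNIP level of EBC-1 without knockdown was far below that of the other lines. PC-9 nc libraries measured 225, 219 and 242 FPKM, and HCC827 nc libraries measured 53.2, 49.4 and 62.1 FPKM. The nc mean of PC-9 was 43.7 times that of EBC-1 and 4.16 times that of HCC827. In EBC-1 with knockdown the level came close to the HCC827 range, since the highest EBC-1 shSYK library overlapped the HCC827 shSYK libraries of 43.2, 47.2 and 50.9 FPKM. Ordered by mean, PC-9 shSYK was followed by PC-9 nc, HCC827 nc, HCC827 shSYK, EBC-1 shSYK and EBC-1 nc. Neighbours in this order overlapped except PC-9 nc against HCC827 nc and EBC-1 shSYK against EBC-1 nc. The 3 tables were normalised separately, so levels between lines are described and not tested, although reads scaled to the total on genes gave the same order and a PC-9 to EBC-1 ratio of 43.7.

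SYK knockdown gave no call for TXNIP in PC-9 or HCC827. PC-9 shSYK libraries measured 220, 261 and 256 FPKM, overlapping nc, with a log2 fold change of 0.10 (95% interval -0.18 to 0.38, limma, adjusted p = 0.757). In HCC827 the mean was 54.9 ± 6.53 FPKM in nc and 47.1 ± 3.83 in shSYK (SD, n = 3), which gave -0.21 on the log2 scale (95% interval -0.44 to 0.01, limma, adjusted p = 0.12). The HCC827 groups overlapped by 1 shSYK library. With limma-voom on the recovered reads the HCC827 value was past the threshold (log2 fold change -0.20, adjusted p = 0.047). The difference between the PC-9 and HCC827 effects was 0.31 (95% interval -0.01 to 0.64, limma, adjusted p = 0.295).

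**Figure D1:**
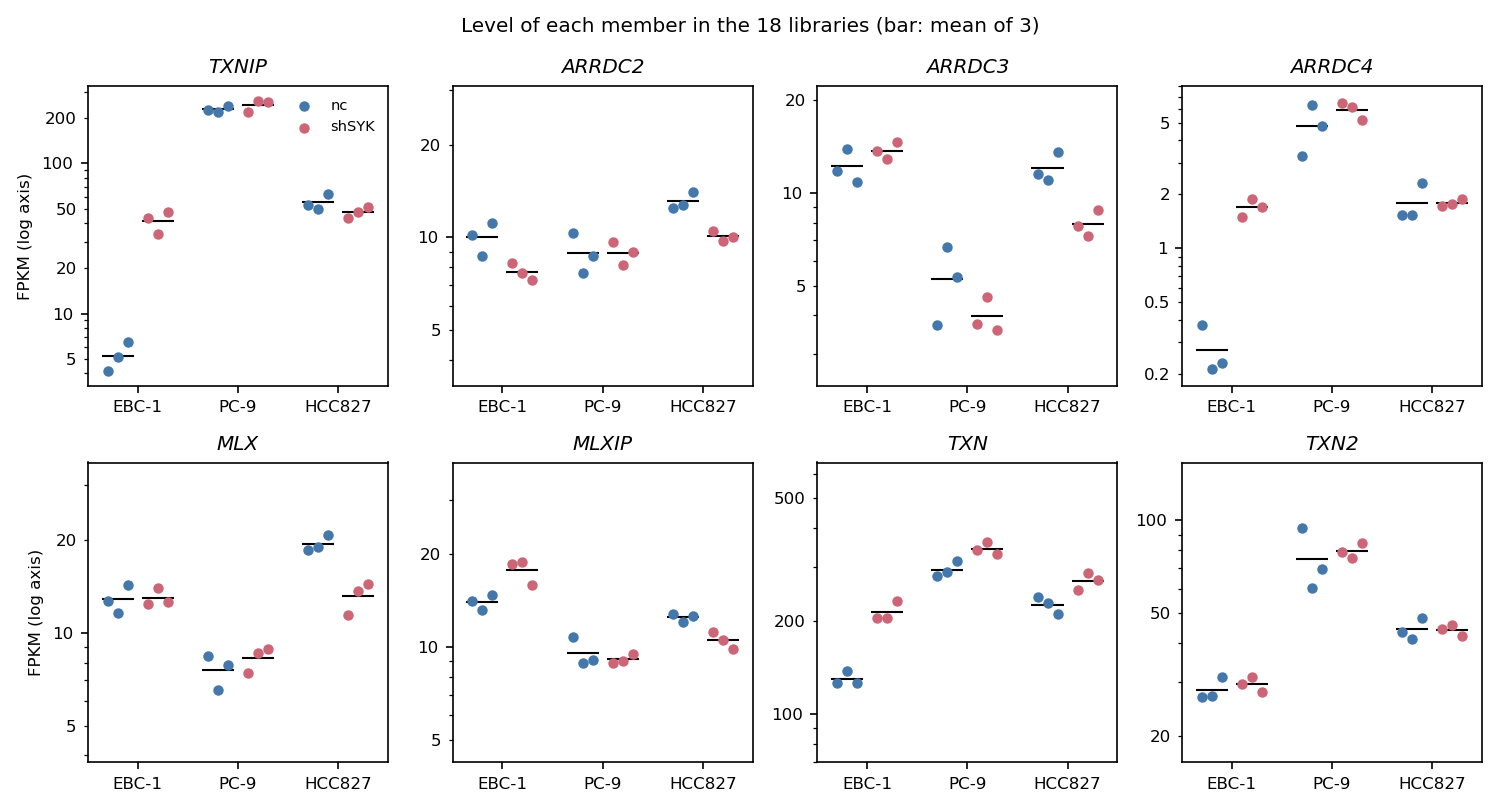
FPKM of the 8 genes in each of the 18 libraries on log axes, nc in blue and shSYK in red, with a bar at the mean of 3 libraries. TXNIP and ARRDC4 show the widest range, with EBC-1 nc lowest (5.23 and 0.272 FPKM) and PC-9 shSYK highest (246 and 5.93 FPKM).

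ARRDC4 (ENSG00000140450, chr15:97960698-97973838, plus strand), an alpha-arrestin that dampens glucose uptake as TXNIP does, had the same order of cell lines. In EBC-1 it measured 0.374, 0.214 and 0.229 FPKM in nc and 1.49, 1.89 and 1.70 FPKM in shSYK, with no overlap. The mean was 6.21-fold higher with knockdown, from 11 to 21 reads in each nc library and 90 to 99 in each shSYK library. Counting error is thus a larger part of this fold than of that of TXNIP. Its mean over the 6 EBC-1 libraries, 0.982 FPKM, was just under the filter of 1 FPKM, so it did not enter the fit in that line. On the log2(FPKM + 1) scale the EBC-1 difference was 1.08, an understatement at such low levels.

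In the other lines ARRDC4 showed no call. PC-9 nc libraries measured 3.30, 6.34 and 4.81 FPKM, wider apart than the shSYK libraries at 6.44, 6.16 and 5.20 FPKM. The PC-9 log2 fold change was 0.28 (95% interval -0.16 to 0.73, limma, adjusted p = 0.548), with 0.08 when nc 1 and 0.47 when nc 2 was left out. HCC827 had 1.53, 1.53 and 2.32 FPKM in nc and 1.72, 1.78 and 1.89 FPKM in shSYK, which overlapped, with a log2 fold change of 0.01 (95% interval -0.28 to 0.30, limma, adjusted p = 0.944). The direction of this last value turned with quantile normalization, at -0.02. The ARRDC4 level of EBC-1 shSYK cells overlapped both HCC827 groups, as that of TXNIP overlapped HCC827 shSYK.

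**Figure D2:**
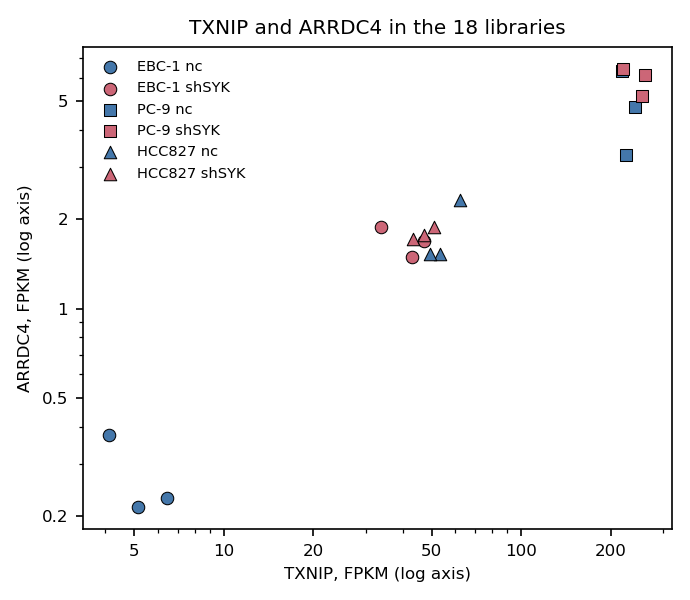
TXNIP against ARRDC4 in FPKM, both on log axes, for the 18 libraries, with circles for EBC-1, squares for PC-9 and triangles for HCC827, nc in blue and shSYK in red. The 3 EBC-1 nc libraries stand alone at the lower left, the EBC-1 shSYK libraries lie among or beside those of HCC827, and the 6 PC-9 libraries lie at the upper right.

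Because TXNIP and ARRDC4 had the same order of cell lines and were both higher in EBC-1 with knockdown, the DNA before their start sites is shown, with that of MLX, whose product is a subunit of their known activator. The sequences are the reference from RefSeq (GRCh38.p14), 5′ to 3′ on the strand of the gene, and end at the last base before the annotated start for TXNIP (chr1:145996580-145996829, minus strand) and ARRDC4 (chr15:97960453-97960702, plus strand). The MLX stretch (chr17:42566850-42567071, plus strand) ends 28 bases short of the start. Capitals mark matches to CACGTG, to CCAAT or its reverse complement ATTGG, to TGTTTAC or its reverse complement GTAAACA, and to a pair of CACGNG half-sites with 5 bases between them.
TXNIP: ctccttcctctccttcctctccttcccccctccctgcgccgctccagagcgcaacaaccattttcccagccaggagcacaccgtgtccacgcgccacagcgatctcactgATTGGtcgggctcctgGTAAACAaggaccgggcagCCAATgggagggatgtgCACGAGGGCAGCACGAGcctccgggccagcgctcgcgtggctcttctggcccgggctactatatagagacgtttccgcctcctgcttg
ARRDC4: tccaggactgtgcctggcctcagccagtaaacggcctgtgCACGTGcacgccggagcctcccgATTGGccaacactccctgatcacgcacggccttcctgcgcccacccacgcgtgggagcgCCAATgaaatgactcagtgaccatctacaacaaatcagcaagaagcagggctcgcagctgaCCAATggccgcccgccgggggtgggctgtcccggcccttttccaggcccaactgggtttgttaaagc
MLX: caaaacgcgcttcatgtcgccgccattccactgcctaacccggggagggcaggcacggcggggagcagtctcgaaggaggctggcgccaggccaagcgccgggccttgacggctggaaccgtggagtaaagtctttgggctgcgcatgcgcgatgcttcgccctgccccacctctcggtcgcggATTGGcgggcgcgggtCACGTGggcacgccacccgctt

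The paired half-sites, the arrangement known as a carbohydrate response element, were found in TXNIP at 88 to 72 bases before the start as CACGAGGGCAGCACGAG, in the letters CACGNG or the reverse complement CNCGTG. Only 23 of 35116 windows of 250 bases before RefSeq starts held this pair, 0.0655%. ARRDC4 held no such pair in its window but held CACGTG at 210 to 205 bases before the start, and MLX held CACGTG at 50 to 45 bases. CACGTG occurred in 6.34% of all windows. ATTGG or CCAAT occurred at 2 places in TXNIP and at 3 places in ARRDC4, and in 32% of all windows. TXNIP also held GTAAACA, found as TGTTTAC or GTAAACA in 2.98% of windows. ARRDC2, ARRDC3, MLX and MLXIP did not have the TXNIP order of cell lines, although MLXIP was higher in EBC-1 with knockdown. They held these motifs too, since each had a window with CCAAT or ATTGG, and ARRDC3 had a window with TGTTTAC. The TXN window held none of the marked motifs, although TXN was also higher in EBC-1 with knockdown. Of the 8 genes, 7 had a window in the RefSeq table, 10 windows in all, and TXN2 had none. The motifs were chosen after the expression values were seen, and a match describes letters and not a bound site.

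ARRDC2 and ARRDC3 did not share the order of cell lines seen for TXNIP, and neither was higher without overlap in EBC-1 shSYK. ARRDC3 (ENSG00000113369, chr5:91368724-91383359, minus strand), an adaptor for adrenergic receptor and integrin trafficking, measured 11.8, 13.9 and 10.8 FPKM in EBC-1 nc and 13.6, 12.9 and 14.6 FPKM in EBC-1 shSYK. These groups overlapped, with a log2 difference of 0.16. Its nc level was lowest in PC-9, where that of TXNIP was highest, and EBC-1 nc was 2.32 times PC-9 nc. In HCC827 ARRDC3 fell, from 11.5, 10.96 and 13.6 FPKM to 7.77, 7.26 and 8.76 FPKM, with no overlap. The log2 fold change was -0.54 ± 0.10 (SE, limma, adjusted p = 0.00459). The PC-9 value was -0.30 (95% interval -0.72 to 0.12, limma, adjusted p = 0.489), from 3.72, 6.64 and 5.33 FPKM in nc to 3.75, 4.61 and 3.59 FPKM in shSYK, which overlapped. Without nc 1 this value was -0.49, and without nc 2 it was -0.14. The antisense gene ARRDC3-AS1 overlaps this locus and reached at most 0.887 FPKM.

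ARRDC2 (ENSG00000105643, chr19:18001132-18014102, plus strand) varied little across cell lines, by a factor of 1.48 between the nc means of HCC827 and PC-9. HCC827 nc libraries measured 12.5, 12.8 and 14.1 FPKM and shSYK libraries 10.5, 9.75 and 10.03 FPKM. It thus fell in HCC827, with no overlap and a log2 fold change of -0.34 ± 0.06 (SE, limma, adjusted p = 0.00553). In EBC-1 it was lower in every shSYK library, at 8.24, 7.65 and 7.26 FPKM against 10.2, 8.69 and 11.2 FPKM in nc, a log2 difference of -0.33. PC-9 gave means of 8.88 ± 1.34 in nc and 8.93 ± 0.78 FPKM in shSYK (SD, n = 3). The log2 fold change was 0.01 (95% interval -0.28 to 0.31, limma, adjusted p = 0.979), and it turned to -0.01 on rescaling to an equal sum. The gene AC020904.3 on the other strand overlaps ARRDC2 and was listed at 0 FPKM.

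MLX (ENSG00000108788, chr17:42567068-42573239, plus strand), the DNA-binding partner of MLXIP, fell in HCC827. Its libraries measured 18.5, 18.9 and 20.7 FPKM in nc and 11.4, 13.6 and 14.3 FPKM in shSYK. The groups did not overlap, and the log2 fold change was -0.53 ± 0.09 (SE, limma, adjusted p = 0.00383). In EBC-1 the groups overlapped, at 12.7, 11.5 and 14.3 FPKM in nc and 12.4, 13.9 and 12.6 FPKM in shSYK, a log2 difference of 0.01. PC-9 libraries overlapped too, at 8.37, 6.52 and 7.84 FPKM in nc and 7.43, 8.61 and 8.84 FPKM in shSYK, with a log2 fold change of 0.12 (95% interval -0.16 to 0.40, limma, adjusted p = 0.715). MLX overlaps PSMC3IP on the other strand, which reached at most 6.92 FPKM, and the use of strand in counting is not given in the sources used here.

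MLXIP (ENSG00000175727, chr12:122078722-122147347, plus strand), the glucose-sensing subunit, was higher with knockdown in EBC-1 and fell in HCC827. In EBC-1 it measured 14.1, 13.2 and 14.8 FPKM in nc and 18.6, 18.9 and 15.9 FPKM in shSYK, with every shSYK library higher and a log2 difference of 0.32. In HCC827 it fell from 12.8, 12.1 and 12.6 FPKM to 11.2, 10.5 and 9.88 FPKM, with no overlap. The HCC827 log2 fold change was -0.23 ± 0.06 (SE, limma, adjusted p = 0.0224). That call was lost on rescaling to an equal sum (adjusted p = 0.0701) and when nc 1, nc 3, shSYK 2 or shSYK 3 was left out (adjusted p = 0.0556 to 0.0731). PC-9 gave 10.7, 8.88 and 9.08 FPKM in nc and 8.86, 8.996 and 9.50 FPKM in shSYK, which overlapped, with a log2 fold change of -0.06 (95% interval -0.30 to 0.18, limma, adjusted p = 0.859).

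TXN (ENSG00000136810, chr9:110243811-110256640, minus strand), the cytosolic thioredoxin that TXNIP binds, was the gene whose shSYK libraries lay above all nc libraries in each of the 3 lines. EBC-1 nc libraries measured 126, 138 and 126 FPKM and shSYK libraries 205, 205 and 232 FPKM, a 1.65-fold higher mean and a log2 difference of 0.71. HCC827 rose from 239, 228 and 211 FPKM to 253, 286 and 272 FPKM, a log2 fold change of 0.26 ± 0.07 (SE, limma, adjusted p = 0.0259). PC-9 measured 279, 287 and 312 FPKM in nc and 339, 361 and 329 FPKM in shSYK, a log2 fold change of 0.23 ± 0.11 that missed the threshold (95% interval -0.03 to 0.49, limma, adjusted p = 0.374). The difference between the PC-9 and HCC827 effects was -0.03, with a 95% interval of -0.29 to 0.24 whose bounds are about as large as the effects (limma, adjusted p = 0.949). The HCC827 call was lost without a filter (adjusted p = 0.0789), with a replicate block (0.0588) and when nc 2, nc 3, shSYK 2 or shSYK 3 was left out (adjusted p = 0.0507 to 0.0858). Of 7 TXN pseudogenes in the tables, the highest reached 1.19 FPKM.

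TXN2 (ENSG00000100348, chr22:36467036-36482030, minus strand), the mitochondrial thioredoxin, showed no call in either tested line. Its EBC-1 means were 28.3 ± 2.40 FPKM in nc and 29.5 ± 1.70 in shSYK (SD, n = 3), which overlapped. HCC827 had 44.4 ± 3.67 and 44.1 ± 1.71 FPKM, a log2 fold change of -0.01 (95% interval -0.17 to 0.16, limma, adjusted p = 0.956) that turned to 0.06 on rescaling to an equal sum. In PC-9 the nc libraries spread from 60.6 to 94.2 FPKM, around shSYK libraries of 75.6 to 84.6 FPKM, and the log2 fold change was 0.11 (95% interval -0.28 to 0.51, limma, adjusted p = 0.829). Its nc level in PC-9 was 2.64 times that in EBC-1.

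**Figure D3:**
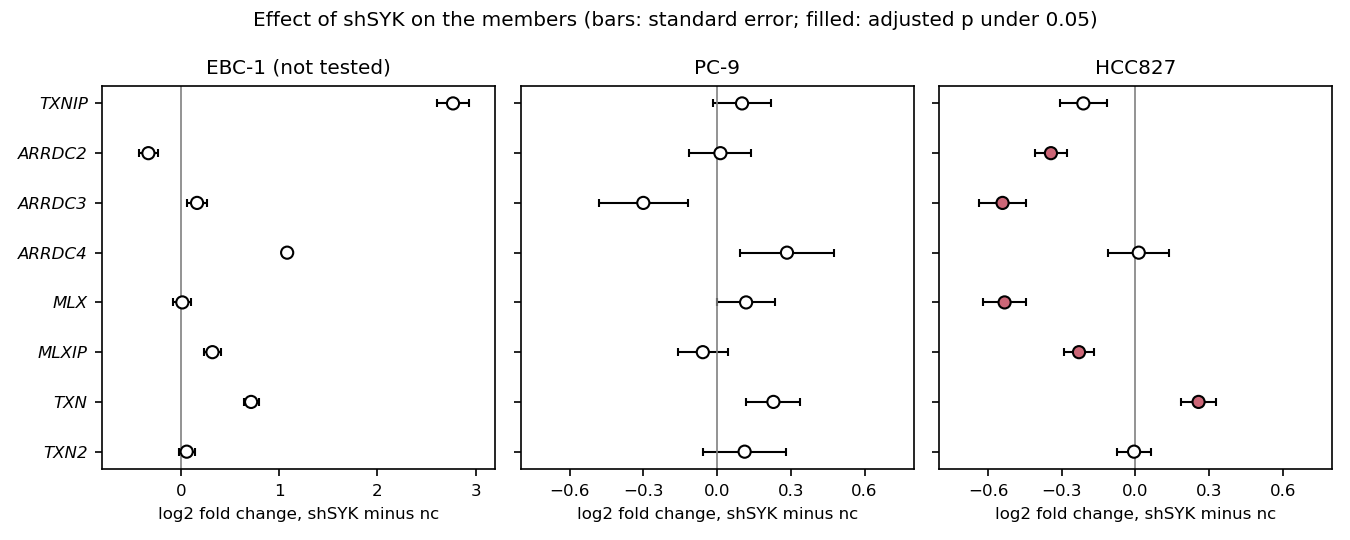
Log2 fold change of each gene on the log2(FPKM + 1) scale, shSYK minus nc, with the standard error from the limma fit as bars and filled circles for an adjusted p under 0.05 in the tested lines PC-9 and HCC827. EBC-1 has a wider axis and no test, and ARRDC4 has no error bar there because it was under the filter. TXNIP in EBC-1 reaches 2.77, and the filled circles are ARRDC2, ARRDC3, MLX, MLXIP and TXN in HCC827.

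The 8 genes were then counted in each line. In EBC-1 the groups did not overlap for TXNIP, MLXIP and TXN, which were higher, and for ARRDC2, which was lower, 4 of the 7 that passed the filter, and ARRDC4 under the filter was higher without overlap. Of all 12430 genes that passed in that line, 56.9% did not overlap, 29.7% upward and 27.2% downward. TXNIP, which led to the choice of the genes, is one of them. In PC-9, 0 of 8 passed limma's threshold of an adjusted p under 0.05, where 2.09% of 12089 genes did, 0.678% upward and 1.41% downward. No member was under an unadjusted p of 0.05 there, and none was called by limma-voom or without nc 1. Over all PC-9 genes 253 were called, 621 without nc 1 and 503 without nc 2. Without nc 1 the log2 fold changes were 0.09 for TXNIP, 0.11 for ARRDC2, 0.18 for MLX, 0.02 for MLXIP, 0.19 for TXN and 0.29 for TXN2. Without nc 2 they were 0.07 for TXNIP, -0.08 for ARRDC2, 0.03 for MLX, -0.10 for MLXIP, 0.22 for TXN and -0.03 for TXN2. Thus MLXIP turned direction without nc 1, and ARRDC2 and TXN2 without nc 2. Only TXN had groups that did not overlap in PC-9, against 23.7% of all genes, 11.4% upward and 12.3% downward. In HCC827, 1 of 8 rose and 4 of 8 fell, against 17.2% and 20.7% of 11999 genes, 38.0% in all. The 5 that changed were the 5 without overlap, and 52.3% of all genes had none, 24.7% upward and 27.6% downward. The median log2 fold change of the genes was 0.11 in PC-9 and -0.22 in HCC827, beside 0.01 and -0.01 over all genes tested.

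**Figure D4:**
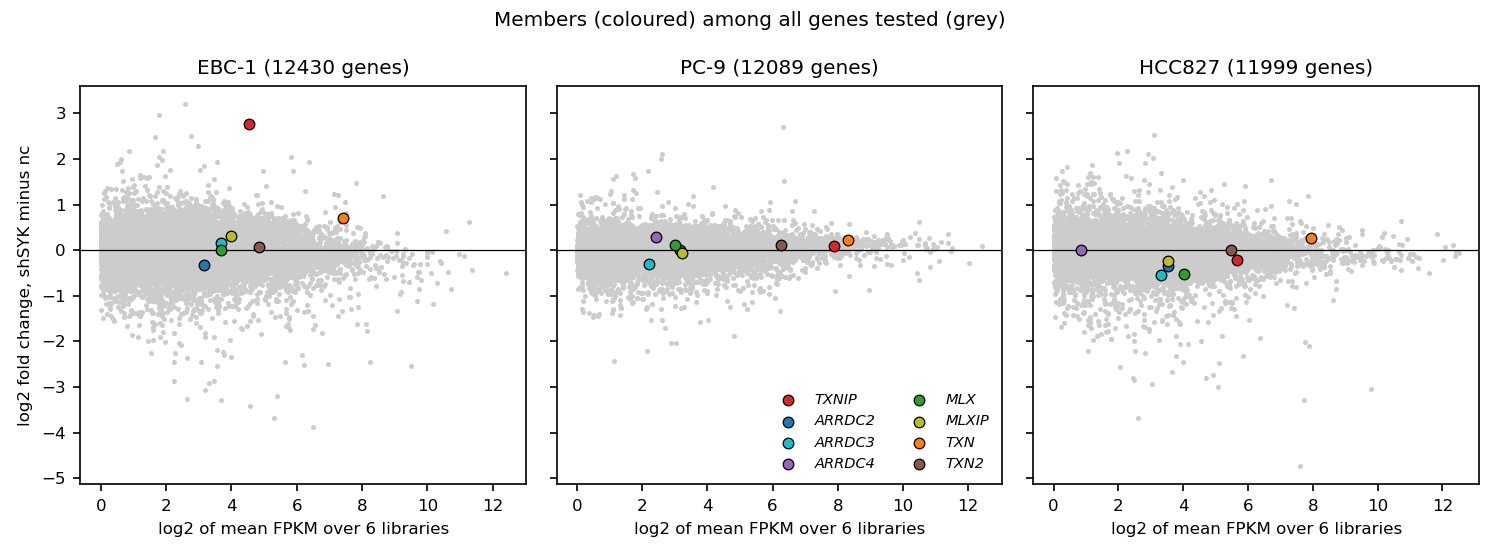
Log2 fold change against log2 of the mean FPKM for every gene that passed the filter, in grey, with the 8 genes coloured, 1 panel for each cell line. TXNIP lies near the top of the EBC-1 panel, ARRDC4 is not drawn there because its mean of 0.982 FPKM was under the filter, and in PC-9 all 8 lie between -0.30 and 0.28.

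The shSYK effects in PC-9 and HCC827 were compared directly for the 8 genes, since a call in one line and none in the other does not show a difference. Of the 8, 1 passed the threshold, against 5.04% of 12382 genes. It was MLX, with a difference PC-9 minus HCC827 of 0.65 ± 0.15 (SE, limma, adjusted p = 0.0312). This call was lost with a replicate block (adjusted p = 0.0617), without a filter (0.0609) and when any of PC-9 nc 3, shSYK 2 and shSYK 3 or HCC827 nc 1, nc 2, nc 3, shSYK 1 and shSYK 2 was left out (0.0564 to 0.0881). For ARRDC2 the difference was 0.36 (95% interval 0.04 to 0.67, limma, adjusted p = 0.198), and it passed without PC-9 nc 1 (adjusted p = 0.0224). ARRDC3, ARRDC4, MLXIP and TXN2 gave differences between 0.12 and 0.27, with adjusted p from 0.493 to 0.816. At this spread, a difference as large as 0.72 for ARRDC3 or 0.80 for ARRDC4 was within the 95% interval.

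Ratios between the genes were taken within each library, where the scale of the library cancels. They were chosen after the values were seen. An exact permutation test of 3 against 3 libraries cannot give a p under 0.1, so no test result is given for them. TXNIP over TXN, the binding inhibitor against its partner, was 0.0403 ± 0.00968 in EBC-1 nc and 0.193 ± 0.0239 in EBC-1 shSYK (SD, n = 3). PC-9 had 0.781 ± 0.0238 and 0.717 ± 0.0644, which overlapped. In HCC827 the ratio was lower in every shSYK library, at 0.171, 0.165 and 0.187 against 0.223, 0.216 and 0.294 in nc. The TXNIP transcript thus never exceeded that of TXN in any library. For TXN over TXN2, EBC-1 had 4.62 ± 0.54 in nc and 7.30 ± 0.94 in shSYK, without overlap. HCC827 had 5.13 ± 0.66 in nc and 6.13 ± 0.39 in shSYK, also without overlap. In PC-9 that ratio overlapped, at 4.06 ± 0.96 and 4.33 ± 0.45. TXNIP over ARRDC4 overlapped between nc and shSYK in each line, with means of 21.0 ± 8.91 and 24.9 ± 6.03 in EBC-1, where the nc ratios spread widely on few ARRDC4 reads. MLXIP over MLX was 1.10 ± 0.06 in EBC-1 nc and 1.37 ± 0.12 in shSYK without overlap, and it overlapped in PC-9 and HCC827. TXNIP over ARRDC3 was higher without overlap in EBC-1 shSYK, at 3.01 ± 0.33 against 0.44 ± 0.14. In HCC827 it was also higher in every shSYK library, at 5.96 ± 0.49 against 4.57 ± 0.06, and in PC-9 it overlapped.

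**Figure D5:**
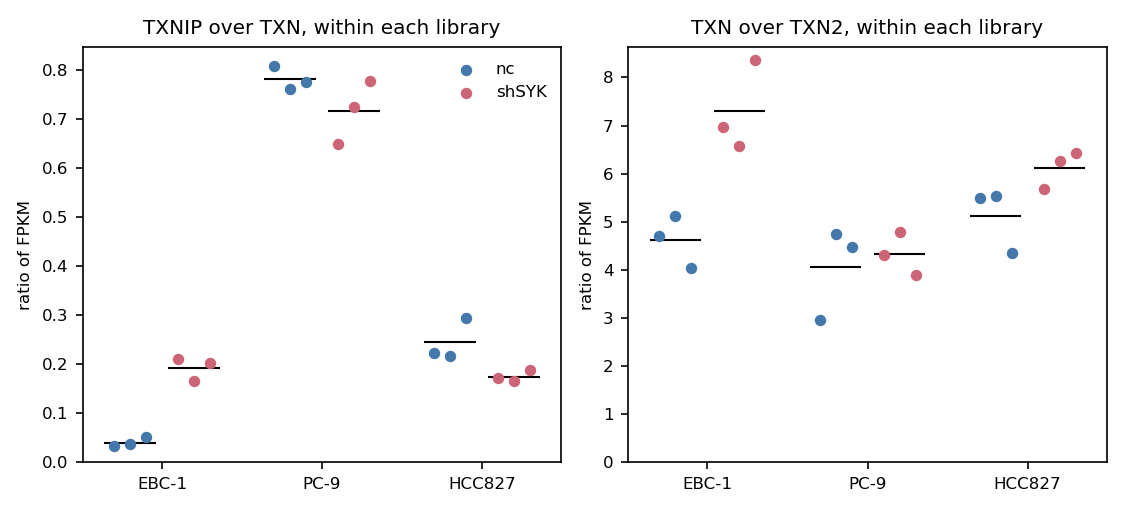
Ratio of FPKM within each library for TXNIP over TXN and TXN over TXN2, nc in blue and shSYK in red, with a bar at the mean of 3 libraries and axes from 0. TXNIP over TXN is highest in PC-9 (0.781 in nc) and lowest in EBC-1 nc (0.0403), and TXN over TXN2 is highest in EBC-1 shSYK (7.30).

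The likeness of other genes to TXNIP was measured as Pearson r over the 18 libraries, on log2(FPKM + 1) minus the mean of each cell line. These libraries share their line and condition, and the EBC-1 contrast carries most of the spread, so r is a description. Over 10029 genes with a mean of at least 1 FPKM in each line the median r was 0.05, and 51 genes exceeded 0.9. The 5 highest were CTSC (0.97), a lysosomal cysteine protease, PPP2R1B (0.95), a scaffold subunit of protein phosphatase 2A, LLPH (0.95), MGST1 (0.95), a membrane glutathione transferase, and AKR1B10 (0.95), an aldo-keto reductase. The means of AKR1B10 were 4.38 FPKM in EBC-1 nc and 19.4 FPKM in EBC-1 shSYK. Its PC-9 means were 108 and 120 FPKM, and its HCC827 means 6.58 and 5.09 FPKM, so EBC-1 shSYK lay above HCC827 for this gene and below it for TXNIP. Among the other members, r was 0.85 for ARRDC4, 0.84 for TXN, 0.67 for MLXIP, 0.25 for ARRDC3, 0.16 for TXN2, 0.13 for MLX and -0.49 for ARRDC2. Within single lines of 6 libraries, r with TXNIP for ARRDC4 was 0.96 (EBC-1), 0.06 (PC-9) and, with HCC827 alone, 0.61. For TXN the values were 0.98 (EBC-1), 0.64 (PC-9) and, with HCC827 alone, -0.66. In HCC827 alone, r was higher for ARRDC3 (0.86), MLX (0.85) and ARRDC2 (0.74) than for ARRDC4. In PC-9 alone it was 0.77 for MLX, -0.21 for ARRDC3 and -0.25 for ARRDC2, and in EBC-1 alone 0.08, 0.60 and -0.81. MLXIP had 0.85, -0.08 and 0.51 in EBC-1, PC-9 and HCC827, and TXN2 had 0.36, 0.17 and 0.47. Likeness to TXNIP thus differed between lines.

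The other genes of these pathways were taken from 6 lists. Of the remaining alpha-arrestins, ARRDC1 was the only one that passed the filter. It fell in HCC827 from 23.6 ± 1.34 to 17.5 ± 1.26 FPKM (SD, n = 3), which is -0.41 in log2 terms (limma, adjusted p = 0.00431), as ARRDC2 and ARRDC3 did. In the other lines it gave no call.

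In the thioredoxin system, counted without TXN and TXN2, HCC827 had 4 of 21 tested genes that rose and 5 that fell, near the 17.2% and 20.7% over all HCC827 genes. Of the thioredoxin reductases, the cytosolic TXNRD1 fell there from 123 ± 3.51 to 81.4 ± 3.39 FPKM (limma, adjusted p = 0.000422). The mitochondrial TXNRD2 fell from 10.1 ± 0.46 to 6.21 ± 0.31 FPKM (limma, adjusted p = 0.000529). MSRB1, a methionine sulfoxide reductase that uses thioredoxin, fell from 40.1 to 27.4 FPKM. PRDX3, the mitochondrial peroxiredoxin, rose from 37.4 ± 0.97 to 53.5 ± 0.82 FPKM (limma, adjusted p = 0.000453). Thus TXN and the cytosolic reductase TXNRD1 moved in opposite directions in HCC827, but the TXN call was lost under 6 of 15 alternatives. The mitochondrial TXN2 gave no call there beside the fall of TXNRD2.

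In EBC-1, 7 of 21 tested genes of the thioredoxin system were past the threshold upward and 5 downward, where 23.1% and 21.6% of all EBC-1 genes were, 44.7% in all. On rescaling to an equal sum, the share of calls upward over all EBC-1 genes moved from 51.7% to 67.9% and the median log2 fold change by 0.13, and in HCC827 that share moved from 45.4% to 56.5%. PRDX1, the cytosolic peroxiredoxin that thioredoxin reduces, was higher in EBC-1 shSYK, at 154 ± 6.02 against 117 ± 4.93 FPKM. GLRX2, a mitochondrial glutaredoxin, was higher at 6.50 against 4.80 FPKM, and MSRB2 was lower at 4.26 against 6.03 FPKM. PRDX5 was lower at 522 against 661 FPKM, a call that was lost with quantile normalization (log2 fold change -0.05, adjusted p = 0.421) and without a filter (adjusted p = 0.0804). In the thioredoxin-fold family, EBC-1 had 2 of 10 tested genes past the threshold upward and 2 downward, and HCC827 had 3 of 11 that rose and 2 that fell. Over all genes EBC-1 had 23.1% upward and 21.6% downward, while HCC827 had 17.2% and 20.7%. TXNDC17, a small thioredoxin-like reductase, was higher with knockdown in EBC-1 (7.53 and 10.2 FPKM) and rose in HCC827 (28.2 and 37.3 FPKM, limma, adjusted p = 0.0124). TXNDC9 was higher in EBC-1 (6.45 and 10.5 FPKM), and in HCC827 its call at 8.64 and 10.6 FPKM was lost under 9 of 15 alternatives (limma, adjusted p = 0.0388, and up to 0.118). TXNDC11 was lower in EBC-1 (11.7 and 8.81 FPKM) and fell in HCC827 (6.50 and 5.16 FPKM, limma, adjusted p = 0.0151), a call lost without shSYK 3 (adjusted p = 0.0504). TXNDC12 fell in HCC827 from 34.6 to 25.5 FPKM (limma, adjusted p = 0.00158).

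In the network of factors that share the partners MLX and MAX, counted without MLX and MLXIP, 1 of 8 tested genes was past the threshold upward and 4 downward in EBC-1, and 0 rose and 1 fell of 8 in HCC827. Of all genes, 44.7% were called in EBC-1, 21.6% downward, and 38.0% in HCC827, 20.7% downward. The 4 in EBC-1 were MYC, at 122 ± 11.9 against 188 ± 21.1 FPKM, and its antagonists MXI1 (5.20 against 8.32 FPKM), MXD3 (6.08 against 8.78 FPKM) and MNT (6.94 against 8.95 FPKM). The MXD3 and MNT calls were lost without a filter and without nc 1 or nc 3, and that of MNT also on rescaling (adjusted p = 0.0535 to 0.0807 in these fits).

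The NEDD4-type ubiquitin ligases, which alpha-arrestins recruit, had 3 of 7 tested genes past the threshold upward and 1 downward in EBC-1, and 2 that rose and 2 that fell of 7 in HCC827. Among all EBC-1 genes 23.1% were called upward and 21.6% downward, and among all HCC827 genes 17.2% and 20.7%. SMURF2 moved upward in both, from 5.38 to 7.85 FPKM in EBC-1 and from 11.4 ± 0.79 to 18.6 ± 0.91 FPKM in HCC827 (limma, adjusted p = 0.000571 in HCC827). WWP1 was higher in EBC-1 shSYK, at 11.8 against 7.17 FPKM, and NEDD4L was lower, at 17.2 against 21.8 FPKM. SMURF1 and WWP2 fell in HCC827, from 17.7 to 13.2 FPKM and from 13.2 to 10.3 FPKM (limma, adjusted p = 0.00194 and 0.00788).

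Of the glucose entry genes, 5 passed the filter in EBC-1 and in HCC827, and 1 in each was called, downward, near the 21.6% and 20.7% of all genes that were lower in those lines. SLC2A1, which encodes the glucose transporter GLUT1 that TXNIP helps to remove from the surface, was lower in EBC-1 shSYK, at 120 ± 4.04 against 196 ± 11.7 FPKM, a log2 fold change of -0.70. Every EBC-1 alternative kept it past the threshold. SLC2A8 fell in HCC827 from 6.56 to 4.63 FPKM (limma, adjusted p = 0.0117).

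In PC-9, 0 of the 56 tested genes in the 6 lists passed limma's threshold, where 2.09% of all PC-9 genes did. At an unadjusted p under 0.05 there were 6, and limma-voom called 1, against 3.54% of all genes. Without nc 1 the number was also 1, which was MYC, against 5.1% of all genes, and the fit of all 18 libraries called 6, against 12.5%.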

How the data were processed

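The authors deposited 1 table per cell line with FPKM for each library, computed per the labels and methods from reads aligned to hg38, and 58302 Ensembl genes. The submitters' processing notes list CASAVA, HISAT2, GRCh37, GRCh38, hg19 and hg38 without roles. The counting program, its use of strand and the denominator of FPKM are not given in the sources used here. Library columns were assigned from their labels, and 0 columns were left unassigned.

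Multiplied by gene length, FPKM came in whole steps of 1 size within each library (100% of values within 0.05 of a whole number), so reads were recovered for depths and for limma-voom, one of the alternatives. Read numbers cover counting error only. Tests used limma 3.58.1 in R 4.3.3 on log2(FPKM + 1), which understates changes of low genes, with a variance trend, on genes with a mean of at least 1 FPKM over the 6 libraries (12 for the comparison of PC-9 with HCC827), and with Benjamini-Hochberg adjustment over all genes tested. An adjusted p under 0.05 was called. Fits were tested on simulated data. Python 3.11.15, pandas 2.3.3, numpy 2.4.6 and matplotlib 3.10.9 served for tables and figures.

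The genes and lists were chosen with earlier results of these data known. From each list up to 4 called genes per line with no overlap between groups and a mean of at least 5 FPKM are named, by size of change, besides the 8 genes, SYK and the 5 genes most like TXNIP. Coordinates are those of the tables, and all 8 genes overlap the same gene on the same strand in GENCODE release 44. The alternatives were another pseudocount, other filters, rescaling to an equal sum, quantile normalization, a fit of all 18 libraries, a fit without the variance trend, a replicate block, limma-voom and each library left out.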

Additional observations from a re-analysis of the deposited data

Results flagged for a closer look

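The shSYK effect on MLX differed between PC-9 and HCC827 by 0.65 in log2 fold change (limma, adjusted p = 0.0312), the only such test past the threshold among the 8 genes. Its mean in HCC827 fell from 19.4 ± 1.19 to 13.1 ± 1.52 FPKM, and PC-9 gave 7.58 ± 0.95 and 8.29 ± 0.76 FPKM (SD, n = 3). The difference was positive under all 19 alternatives and stayed past the threshold in 9 of them.

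MLXIP differed in direction between EBC-1 and HCC827. All 3 EBC-1 shSYK libraries were above all nc libraries and all 3 HCC827 shSYK libraries were below them, and the effects were 0.55 apart on the log2 scale. This difference was not tested, since the genes were chosen on EBC-1 values. Of all genes, 29.7% were higher without overlap in EBC-1 and 27.6% were lower without overlap in HCC827. The HCC827 call of MLXIP was lost under 5 of 15 alternatives.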

How the results depend on the processing

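In HCC827 the falls of ARRDC2, ARRDC3 and MLX kept their direction and stayed past the threshold under all 15 alternatives, with adjusted p up to 0.0243, 0.0203 and 0.0168 (limma). In EBC-1 the log2 difference of TXNIP ranged from 2.64 to 3.06 over 15 alternatives.

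The number of called genes in PC-9 depended most on the processing. It was 253, and 47 without a filter, 480 on rescaling to an equal sum, 505 with quantile normalization, 1511 in the fit of all 18 libraries, 428 with limma-voom, and 7 to 621 with 1 library left out (621 without nc 1, 503 without nc 2). With 1 library left out, the count ranged from 3761 to 6309 in EBC-1, from 3362 to 3949 in HCC827 and from 401 to 2280 for PC-9 minus HCC827, with 2280 without PC-9 nc 1. A filter of 5 FPKM, with fewer genes tested, gave 3579 in EBC-1 and 324 for the difference. The cause was not tested otherwise.

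Directions turned only for values near 0 and past no threshold. For ARRDC2 in PC-9 the value was -0.0134 on rescaling, and it ranged from -0.0786 to 0.115 with 1 library left out. In PC-9 the left-out range was -0.105 to 0.0196 for MLXIP and -0.0257 to 0.289 for TXN2. For ARRDC4 in HCC827 the value was -0.0224 with quantile normalization and -0.0531 to 0.145 with 1 library left out. For TXN2 in HCC827 it was 0.0551 on rescaling, 0.0482 with quantile normalization, 0.0094 with limma-voom and -0.0555 to 0.0575 with 1 library left out. The difference PC-9 minus HCC827, with 1 library left out, ranged from -0.0751 to 0.0198 for TXN and from -0.02 to 0.294 for TXN2 (-0.01995 without PC-9 nc 2). Over the other alternatives it ranged from -0.119 to -0.0255 for TXN and from 0.0286 to 0.126 for TXN2.

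The replicate numbers did not pair the libraries, since deviations of same-numbered libraries correlated between -0.22 and 0.33. The replicate block gave 4326, 172 and 4111 called genes in EBC-1, PC-9 and HCC827 and 459 for the difference. Counts in the 6 lists stayed within 1.5 times in 150 of 180 alternatives in EBC-1 and 156 of 180 in HCC827. Depth limits ARRDC4 in EBC-1 most.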
